A study of Arabidopsis thaliana with 12 samples.

Results

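The 8 genes described here are the *Arabidopsis thaliana* Aux/IAA genes *IAA1* (AT4G14560), *IAA2* (AT3G23030), *IAA3* (AT1G04240, also known as *SHY2*), *IAA4* (AT5G43700), *IAA5* (AT1G15580), *IAA6* (AT1G52830), *IAA15* (AT1G80390) and *IAA19* (AT3G15540, also known as *MSG2*). They were chosen by gene identity, as a clade of the Aux/IAA family, from 23853 genes in all. Earlier results of these data were known at the time of this choice. Of the 8 genes, 7 were expressed highly enough to be tested. RNA was sequenced from roots of seedlings grown for 7 days according to the sample labels, whereas the study's own text names a different age for root RNA. The 4 groups were the SUMO E3 ligase mutant *siz1-2* with 0.5 µM indole-3-acetic acid (IAA, the auxin applied, 3 h in the labels), *siz1-2* on MS medium without added auxin, wild-type Col-0 with the same IAA treatment, and Col-0 on MS, each with 3 libraries. The labels write the genotypes as siz1 and Col, and the allele name is that of the study. MS and IAA were told apart by the treatment label, although the protocol text lists IAA for every sample, MS ones included. *siz1-2* is a T-DNA insertion allele, tissue and growth conditions were common to all 4 groups, and roots were collected whole. No source used here says whether the libraries of a group came from separate cultures, so the p-values measure the spread between these libraries, which may be technical. In whole roots, fewer cells expressing a gene and less RNA per cell cannot be told apart.

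Aux/IAA proteins are short-lived nuclear repressors of auxin signaling. They bind ARF transcription factors through their carboxy-terminal PB1 domain and recruit TOPLESS corepressors through an amino-terminal motif. When auxin is present, the F-box receptors TIR1 and AFB take hold of a short degron in the repressor, whose core is the residues GWPPV, and the repressor is ubiquitinated and degraded. Many Aux/IAA genes are themselves transcribed in response to auxin, which forms a negative feedback loop. Dominant mutations that stabilize the *IAA3* or *IAA19* protein are known to disturb root growth, tropic growth or lateral root formation.

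The bases that code for the degron are shown because the degron is the part of the repressor that auxin acts on. In the RefSeq annotation of assembly TAIR10.1, all 8 genes held a stretch coding for the degron core within 1 exon, and in the lines that follow the 15 bases of the core are in capitals with 12 bases on each side.
*IAA1*, chr4:8361433-8361471, plus strand: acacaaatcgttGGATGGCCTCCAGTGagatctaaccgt
*IAA2*, chr3:8181381-8181419, minus strand: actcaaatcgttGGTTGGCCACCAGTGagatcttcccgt
*IAA3*, chr1:1129013-1129051, minus strand: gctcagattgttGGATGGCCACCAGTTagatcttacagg
*IAA4*, chr5:17550737-17550775, plus strand: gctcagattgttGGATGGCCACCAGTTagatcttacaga
*IAA5*, chr1:5366269-5366307, minus strand: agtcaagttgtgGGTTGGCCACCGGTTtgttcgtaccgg
*IAA6*, chr1:19673317-19673355, minus strand: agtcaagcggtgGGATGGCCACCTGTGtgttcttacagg
*IAA19*, chr3:5264304-5264342, plus strand: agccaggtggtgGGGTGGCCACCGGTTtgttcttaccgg
*IAA15*, chr1:30222368-30222406, minus strand: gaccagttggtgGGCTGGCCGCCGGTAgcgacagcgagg
Over these 39 bases, *IAA3* and *IAA4* were identical at 38 positions, *IAA1* and *IAA2* at 34, *IAA5* and *IAA19* at 34, and *IAA6* and *IAA19* at 32. *IAA15* stood apart, with at most 24 identical positions to any of the other 7 genes. The longest annotated coding sequence of *IAA15* also had the fewest codons of the 8, with 129 residues, against 163 to 289 residues in the others. Their exonic length, the length to which the expression values are scaled, was 781 to 1358 bases, with 873 bases for *IAA15*.

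Upstream sequences are shown because ARF proteins bind auxin response elements in the promoters of auxin-induced genes, and the members differed in them. The classic element TGTCTC, the variant TGTCGG and their shared core TGTC were searched on both strands from 250 bases before to 50 bases after the annotated gene start, and a match to a hexamer is also a match to the core. The 250 bases before the start follow for the 4 genes with a hexamer match upstream and for *IAA3*, which had no match, with hexamers (or their reverse complements) in capitals.
*IAA5*, chr1:5366498-5366747, minus strand: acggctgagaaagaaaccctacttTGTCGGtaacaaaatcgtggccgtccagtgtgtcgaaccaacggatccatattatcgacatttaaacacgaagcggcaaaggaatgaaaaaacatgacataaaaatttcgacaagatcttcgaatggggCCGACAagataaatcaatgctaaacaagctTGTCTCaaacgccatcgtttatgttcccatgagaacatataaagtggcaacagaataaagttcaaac
*IAA1*, chr4:8360746-8360995, plus strand: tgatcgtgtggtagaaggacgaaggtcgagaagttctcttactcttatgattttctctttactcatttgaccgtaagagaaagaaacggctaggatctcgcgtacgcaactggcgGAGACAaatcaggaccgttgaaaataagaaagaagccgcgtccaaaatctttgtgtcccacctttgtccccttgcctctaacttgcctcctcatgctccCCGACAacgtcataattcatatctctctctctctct
*IAA19*, chr3:5263751-5264000, plus strand: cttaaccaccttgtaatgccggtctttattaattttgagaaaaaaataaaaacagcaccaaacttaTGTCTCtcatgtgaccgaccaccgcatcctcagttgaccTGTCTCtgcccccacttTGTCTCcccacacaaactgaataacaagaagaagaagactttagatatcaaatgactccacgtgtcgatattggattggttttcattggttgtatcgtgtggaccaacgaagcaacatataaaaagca
*IAA6*, chr1:19673653-19673902, minus strand: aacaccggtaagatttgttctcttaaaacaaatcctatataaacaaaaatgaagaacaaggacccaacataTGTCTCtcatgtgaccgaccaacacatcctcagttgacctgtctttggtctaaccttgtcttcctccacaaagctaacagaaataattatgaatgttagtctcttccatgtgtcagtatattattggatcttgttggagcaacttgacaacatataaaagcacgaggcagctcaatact
*IAA3*, chr1:1129690-1129939, minus strand: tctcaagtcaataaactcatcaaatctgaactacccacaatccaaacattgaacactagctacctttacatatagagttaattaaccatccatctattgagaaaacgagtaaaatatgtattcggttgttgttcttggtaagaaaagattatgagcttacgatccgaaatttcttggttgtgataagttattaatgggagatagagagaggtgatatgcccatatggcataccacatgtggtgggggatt
*IAA5* held 1 TGTCTC and 2 TGTCGG matches, *IAA19* held 3 TGTCTC matches, *IAA1* held 1 of each hexamer and *IAA6* held 1 TGTCTC. *IAA2*, *IAA3* and *IAA4* held neither hexamer in the window, and the only hexamer of *IAA15* lay after its gene start, at position 7. The window was set from the annotated gene start, and *IAA2* and *IAA3* have 2 annotated transcripts each. In their longest coding sequences the degron core lies at residue 150 and 167, against 56 to 73 in the others. The window of these genes therefore need not lie at the start of their main transcript. For comparison, TGTCTC was present in 14.1%, TGTCGG in 5.34%, either hexamer in 18.8% and the core in 81.6% of the 23852 windows of the same length in the table's genes. *IAA5* held 7 cores, while the median window held 2 and the 90th percentile was 4. *IAA6* held 5 cores, *IAA1*, *IAA4*, *IAA15* and *IAA19* held 4 each, and *IAA2* held 1. *IAA6* and *IAA19* also shared an identical run of 23 bases, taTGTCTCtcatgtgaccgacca, which began 181 bases before the start of *IAA6* and 186 bases before that of *IAA19*. Only the longest run of each pair was recorded, and the printed stretches of *IAA6* and *IAA19* show further identical bases after theirs. No other pair of the 8 upstream stretches shared a run longer than 12 bases.

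**Figure D1:**
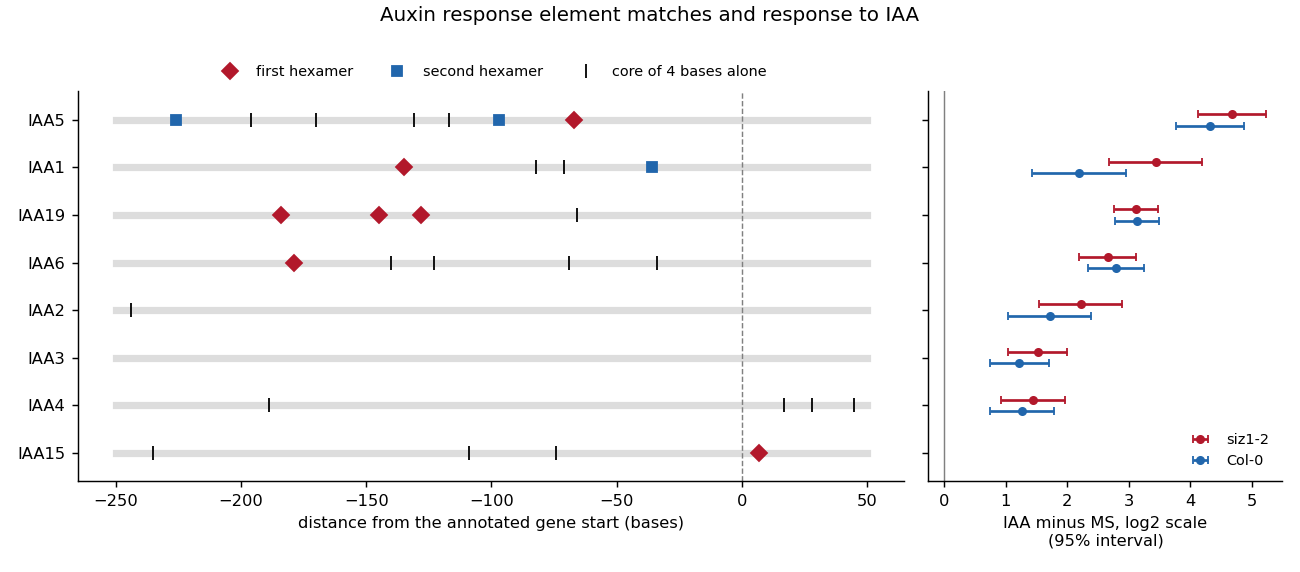
Positions of auxin response element matches around the gene start (left, distance in bases, window from 250 before to 50 after) beside the fitted response to IAA (right, log2 scale, points with 95% intervals, *siz1-2* drawn above Col-0). Diamonds mark the classic hexamer (first hexamer in the legend), squares the variant (second hexamer) and ticks the core alone. The 4 genes with a hexamer upstream occupy the upper rows, ordered by the response in *siz1-2*, and *IAA15*, at the bottom, was not tested.

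The table held FPKM values, that is, fragments scaled to the exonic length of the gene and to the total of the library, and 19550600 (Col-0 IAA replicate 1) to 22522166 fragments lay behind the values of a library. *SIZ1* itself was lower in *siz1-2* than in Col-0, by -0.76 on the log2 scale with IAA and -0.74 on MS (adjusted p = 0.00344 and 0.00563 from limma), and this value over the whole gene does not tell intact from truncated transcripts. All 12 root markers were above 0 in every library. With IAA, *WOX5* (1.44 on the log2 scale) rose and *COBL9* (-1.16) and *GL2* (-0.58) fell in *siz1-2*, while *EXPA7* (0.60) rose and *COBL9* (-1.87), *WER* (-1.15) and *GL2* (-0.79) fell in Col-0. Of 25 photosynthesis genes listed as markers of green tissue, 20 were above 0 in every library and none was at 0 in all. Of the 24 tested, none was called with IAA in *siz1-2* and 5 were higher in Col-0, with median log2 fold changes of 0.21 in *siz1-2* and 0.89 in Col-0, and the part of either marker list in the results on the 8 genes was not tested. Their summed level was 170 to 1191 FPKM in *siz1-2* with IAA, 244 to 362 FPKM in *siz1-2* on MS, 259 to 1536 FPKM in Col-0 with IAA and 266 to 308 FPKM in Col-0 on MS. The top values were those of *siz1-2* IAA replicate 2 and Col-0 IAA replicate 1, and Col-0 IAA replicate 1 stood apart. In that library 1848 genes deviated by over 1 log2 unit from the average of its 2 companions, against 54 to 536 genes in any other library.

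All 7 tested genes rose with IAA in *siz1-2* and all 7 rose in Col-0. *IAA5* and *IAA6* were below 1 FPKM in every MS library. They passed the filter for testing (1 FPKM in 3 or more libraries) only through their IAA libraries. Had they not risen, they would have gone untested, so their part in this count was favoured by the filter. A gene was called when the adjusted p (Benjamini-Hochberg over 18743 genes) of limma on log2(FPKM + 0.5) was under 0.05, and this scale understates the change of low genes. By this rule 9.81% of all tested genes were higher and 8.06% lower with IAA in *siz1-2*, and 9.09% were higher and 8.21% lower in Col-0. The median log2 fold change of the 7 genes was 2.66 in *siz1-2* and 2.19 in Col-0, against 0.10 and -0.02 over all tested genes. When each library was centred on its median, the figure for all genes in *siz1-2* was -0.01, and the higher genes made up 41.9% of those called in *siz1-2* instead of 54.9%. In each of the 7 genes every IAA library was above every MS library of the same genotype, which held for 30.0% of all tested genes in *siz1-2* and 15.5% in Col-0.

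**Figure D2:**
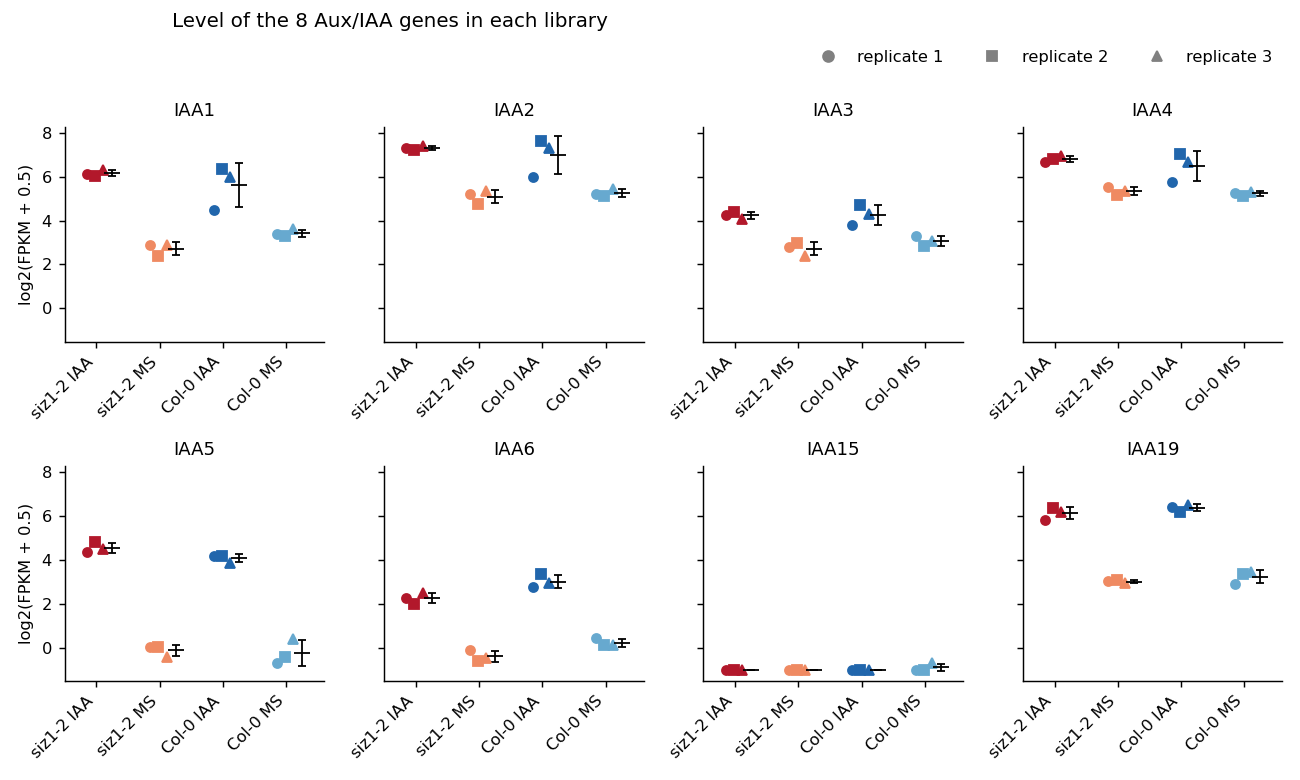
Level of each gene in every library, as log2(FPKM + 0.5), with groups ordered *siz1-2* IAA, *siz1-2* MS, Col-0 IAA and Col-0 MS. Symbols mark the replicate number, and the bar beside them the mean and SD of 3 libraries. IAA libraries lie above MS libraries for 7 genes, Col-0 IAA replicate 1 lies low for *IAA1* to *IAA4*, and *IAA15* stays at the floor.

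*IAA5*, one of the classic early auxin-induced repressor genes, changed most. It was at 19.9, 27.4 and 22.4 FPKM in *siz1-2* with IAA, against 0.512, 0.524 and 0.245 FPKM in *siz1-2* on MS. In Col-0 it was at 17.7, 17.5 and 14.1 FPKM with IAA, against 0.117, 0.235 and 0.821 FPKM on MS. Thus a transcript near the limit of detection on MS was readily measured in all 6 IAA libraries, and the groups did not come near to overlapping. The log2 fold change was 4.68 in *siz1-2* (standard error 0.26, adjusted p = 8.35e-08 from limma) and 4.32 in Col-0 (standard error 0.26, adjusted p = 1.06e-07 from limma). Here and below, the spread of a gene was estimated over all 12 libraries together. Its standard error is therefore the same in both genotypes, even where the libraries of 1 group spread more. Only 22 fragments in *siz1-2* and 19 fragments in Col-0 lay behind the MS values. When the fragment numbers themselves were fitted with limma's voom, the log2 fold change was 5.72 in *siz1-2* (95% interval 4.68 to 6.76) and 5.69 in Col-0 (95% interval 4.55 to 6.83).

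*IAA19*, a repressor that acts with ARF7 in tropic growth, had the smallest standard error of the 7 tested genes on the log2 scale. It was at 56.7, 81.3 and 72.6 FPKM in *siz1-2* with IAA, against 7.65, 7.97 and 7.14 FPKM in *siz1-2* on MS. Col-0 had 85.2, 72.6 and 90.4 FPKM with IAA, against 6.90, 9.73 and 10.5 FPKM on MS. The IAA and MS libraries were thus far apart in both genotypes, although the *siz1-2* IAA libraries spread more in FPKM than those of *IAA1* or *IAA2*. The log2 fold change was 3.11 in *siz1-2* (standard error 0.17, adjusted p = 6.82e-08 from limma) and 3.14 in Col-0 (standard error 0.17, adjusted p = 4.12e-08 from limma).

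*IAA1* rose strongly in *siz1-2* and less evenly in Col-0. It was at 68.6, 65.5 and 78.6 FPKM in *siz1-2* with IAA, against 6.90, 4.66 and 6.92 FPKM in *siz1-2* on MS. In Col-0 it was at 22.0, 82.4 and 63.6 FPKM with IAA, against 9.89, 9.42 and 11.7 FPKM on MS. The first of the Col-0 IAA libraries was thus far below the other 2, though still above all Col-0 MS libraries. The log2 fold change was 3.44 in *siz1-2* (standard error 0.35, adjusted p = 1.85e-05 from limma) and 2.19 in Col-0 (standard error 0.35, adjusted p = 0.00074 from limma).

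*IAA6*, which shares the 23-base upstream run with *IAA19*, was the least abundant of the tested genes with IAA. It was at 4.36, 3.51 and 5.12 FPKM in *siz1-2* with IAA, against 0.414, 0.159 and 0.223 FPKM in *siz1-2* on MS. The Col-0 values were 6.27, 9.59 and 7.24 FPKM with IAA, against 0.856, 0.590 and 0.576 FPKM on MS. It rose in both genotypes, and at both treatments the *siz1-2* libraries were below the Col-0 libraries. The log2 fold change was 2.66 in *siz1-2* (standard error 0.21, adjusted p = 2.09e-06 from limma) and 2.79 in Col-0 (standard error 0.21, adjusted p = 1.22e-06 from limma). From the fragment numbers, 15 in *siz1-2* and 37 in Col-0 on MS, voom gave log2 fold changes of 3.97 (95% interval 2.96 to 4.98) in *siz1-2* and 3.46 (95% interval 2.68 to 4.25) in Col-0.

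*IAA2* and *IAA4* were the abundant members and were well expressed without added auxin. *IAA2* was at 157, 151 and 169 FPKM in *siz1-2* with IAA, against 36.3, 26.6 and 39.9 FPKM in *siz1-2* on MS. Col-0 roots had 63.1, 196 and 160 FPKM with IAA, against 36.4, 34.7 and 43.5 FPKM on MS. It therefore rose in both genotypes, again with the first Col-0 IAA library far below the others. The log2 fold change was 2.22 in *siz1-2* (standard error 0.31, adjusted p = 0.000275 from limma) and 1.71 in Col-0 (standard error 0.31, adjusted p = 0.00184 from limma).

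*IAA4*, which the table lists under its older name ATAUX2-11, was at 102, 111 and 121 FPKM in *siz1-2* with IAA, against 45.6, 35.9 and 40.9 FPKM in *siz1-2* on MS. The Col-0 values were 53.6, 133 and 102 FPKM with IAA, against 37.8, 34.5 and 39.7 FPKM on MS. It rose by 1.44 on the log2 scale in *siz1-2* (standard error 0.24, adjusted p = 0.00105 from limma) and by 1.26 in Col-0 (standard error 0.24, adjusted p = 0.00268 from limma). Its partner in degron sequence, *IAA3*, was expressed at a lower level and moved by a similar amount. *IAA3* was at 18.6, 20.4 and 16.4 FPKM in *siz1-2* with IAA, against 6.52, 7.35 and 4.69 FPKM in *siz1-2* on MS. In Col-0 it was at 13.4, 25.6 and 19.3 FPKM with IAA, against 9.20, 6.58 and 7.87 FPKM on MS. It rose by 1.52 on the log2 scale in *siz1-2* (standard error 0.22, adjusted p = 0.000376 from limma) and by 1.22 in Col-0 (standard error 0.22, adjusted p = 0.00191 from limma).

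*IAA15* was not detected beyond 2 fragments in Col-0 MS replicate 3 (0.113 FPKM) and was listed at 0 in the other 11 libraries. A count of 0 allows up to 3 fragments in a library, which corresponds to 0.153 to 0.176 FPKM. This limit covers counting error only. The gene was below the filter of 1 FPKM in 3 libraries, and no fold change is given for it.

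The 4 genes with a hexamer match upstream (*IAA1*, *IAA5*, *IAA6* and *IAA19*) had log2 fold changes of 2.66 to 4.68 in *siz1-2* and 2.19 to 4.32 in Col-0. The 3 tested genes without a hexamer in the window (*IAA2*, *IAA3* and *IAA4*) had values of 1.44 to 2.22 in *siz1-2* and 1.22 to 1.71 in Col-0. The 95% intervals of *IAA1* and *IAA2* overlapped in both genotypes, and those of *IAA6* and *IAA2* did as well. In *siz1-2* the intervals of *IAA19* and *IAA2* also overlapped. In Col-0 the interval of *IAA1* also overlapped those of *IAA3* and *IAA4*. *IAA5* and *IAA6* passed the filter for testing only through their IAA libraries, so their part in the values of the first group was favoured by the filter. *IAA15*, whose only hexamer lay after its gene start, had no fold change to set beside them. The comparison is a description of 7 genes, with the window set from the annotated gene start only, and was not tested.

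**Figure D3:**
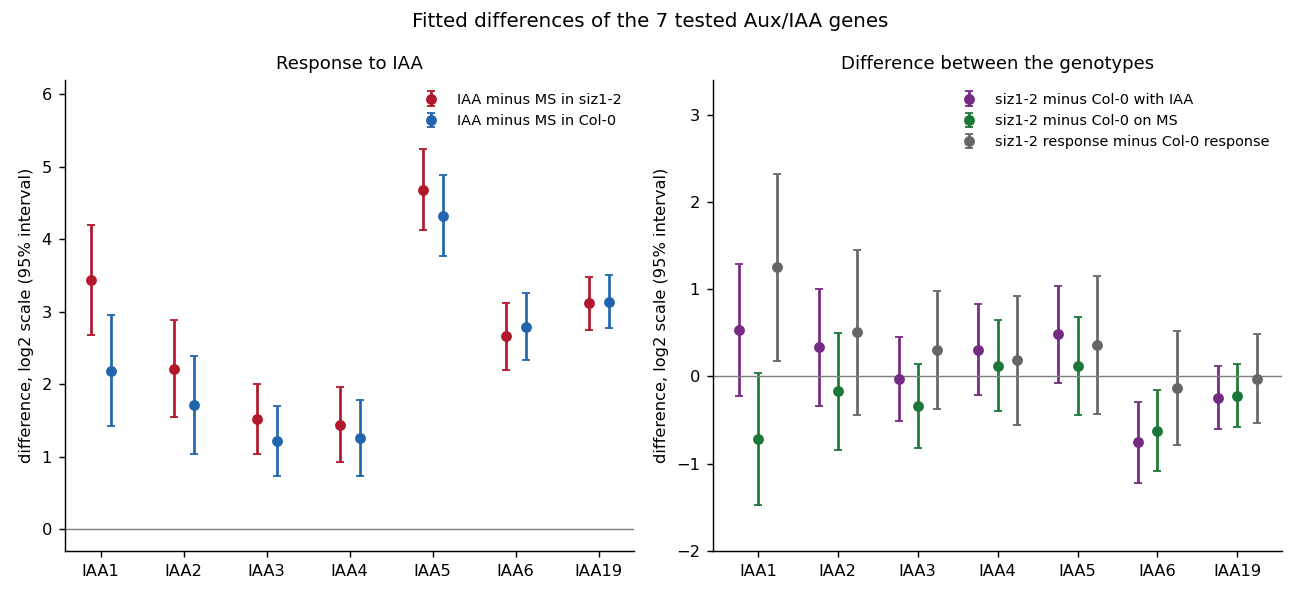
Fitted differences with 95% intervals on the log2 scale. The left panel shows IAA minus MS in *siz1-2* and in Col-0, where all 14 intervals lie above 0. The right panel shows *siz1-2* minus Col-0 with IAA and on MS, and the *siz1-2* response minus the Col-0 response, where most intervals include 0 and *IAA6* lies below 0 at both treatments.

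In Col-0 with IAA, replicate 1 was the library farthest from its companions for *IAA1*, *IAA2*, *IAA3* and *IAA4*. Relative to the mean of the other 2 libraries, this library lay at -1.70 for *IAA1*, -1.48 for *IAA2*, -1.11 for *IAA4* and -0.71 for *IAA3* on the log2 scale. It lay at 0.07 for *IAA19*, 0.16 for *IAA5* and -0.39 for *IAA6*. For *IAA6* and *IAA19* replicate 2 was the farthest (0.48 and -0.27), for *IAA5* replicate 3 (-0.31), and for *IAA3* replicate 2 was nearly as far as replicate 1 (0.65). Thus the members did not move as a block in this library, and among all tested genes 8.88% lay below -1 in it. Its green tissue markers were high, as given above, and their part in these values was not tested. Without this library the log2 fold change in Col-0 was 2.75 for *IAA1*, 2.21 for *IAA2*, 1.45 for *IAA3* and 1.63 for *IAA4*, and all 4 genes were still called. All 7 tested genes were also called in both genotypes when this library and *siz1-2* IAA replicate 2 were left out together.

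**Figure D4:**
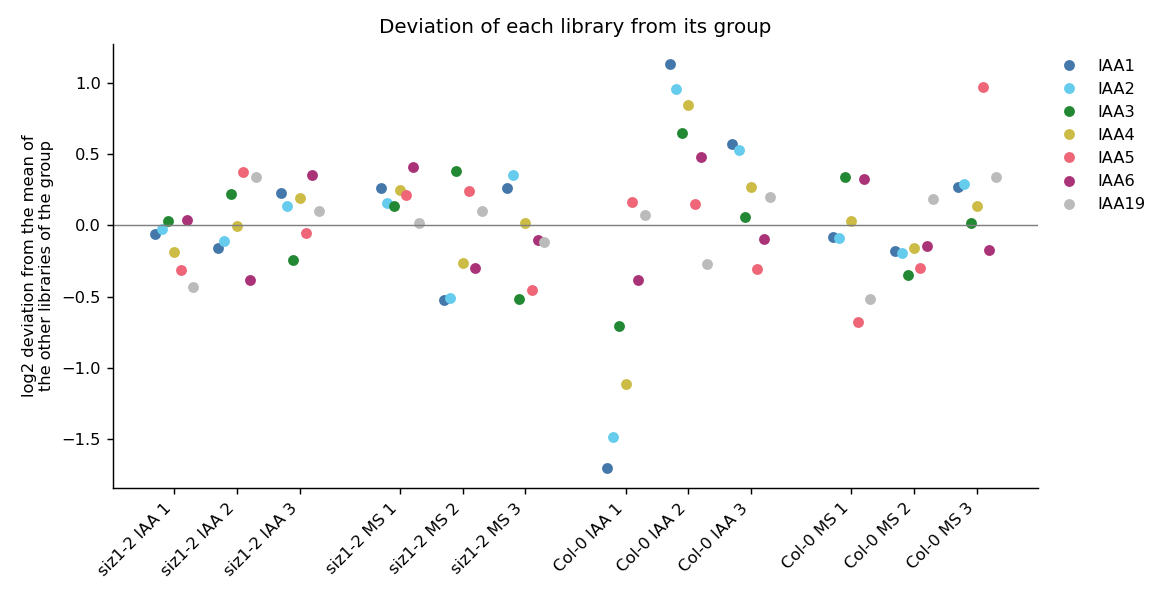
Log2 deviation of each library from the average of its 2 companions in the group, for the 7 tested genes. In Col-0 IAA replicate 1, *IAA1*, *IAA2*, *IAA4* and *IAA3* lie between -1.70 and -0.71, while *IAA5* and *IAA19* lie close to 0.

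Since FPKM are scaled to length, levels can be set side by side between genes. The length used is that of all annotated exons of a gene. *IAA2* and *IAA3* have 2 annotated transcripts each, so their place in the order and their shares depend on this annotation, which was not tested. With IAA, *IAA2* had the highest mean level in *siz1-2* (159 ± 9.40 FPKM, SD, n = 3), followed by *IAA4* (111 ± 9.71 FPKM), *IAA1* (70.9 ± 6.83 FPKM), *IAA19* (70.2 ± 12.5 FPKM), *IAA5* (23.2 ± 3.84 FPKM), *IAA3* (18.5 ± 2.01 FPKM) and *IAA6* (4.33 ± 0.807 FPKM). In this order the libraries of *IAA1* and *IAA19* and those of *IAA5* and *IAA3* overlapped, and the other neighbours did not. In *siz1-2* on MS the order was *IAA4* (40.8 ± 4.88 FPKM), *IAA2* (34.2 ± 6.89 FPKM), *IAA19* (7.59 ± 0.417 FPKM), *IAA3* (6.19 ± 1.36 FPKM), *IAA1* (6.16 ± 1.3 FPKM), *IAA5* (0.427 ± 0.158 FPKM) and *IAA6* (0.266 ± 0.133 FPKM). Here *IAA4* overlapped *IAA2*, *IAA19* overlapped *IAA3*, *IAA3* overlapped *IAA1* and *IAA5* overlapped *IAA6*, while *IAA2* was apart from *IAA19* and *IAA1* from *IAA5*. *IAA19* and *IAA1* thus stood in the middle of the order at both treatments, whereas *IAA5* passed *IAA3* in the means only with IAA.

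In Col-0 with IAA the order of the means was *IAA2* (140 ± 68.7 FPKM), *IAA4* (96.1 ± 40.0 FPKM), *IAA19* (82.7 ± 9.15 FPKM), *IAA1* (56.0 ± 31.0 FPKM), *IAA3* (19.5 ± 6.07 FPKM), *IAA5* (16.5 ± 2.02 FPKM) and *IAA6* (7.70 ± 1.71 FPKM), and only *IAA6* was apart from its upper neighbour. In Col-0 on MS it was *IAA2* (38.2 ± 4.64 FPKM), *IAA4* (37.3 ± 2.60 FPKM), *IAA1* (10.3 ± 1.23 FPKM), *IAA19* (9.05 ± 1.90 FPKM), *IAA3* (7.88 ± 1.31 FPKM), *IAA6* (0.674 ± 0.158 FPKM) and *IAA5* (0.391 ± 0.377 FPKM), with gaps below *IAA4* and below *IAA3*. *IAA15* was last in all 4 groups.

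Summed over the 8 genes, the level was 427, 460 and 486 FPKM in *siz1-2* with IAA, against 104, 83.1 and 99.98 FPKM in *siz1-2* on MS. In Col-0 it was 261, 537 and 457 FPKM with IAA, against 101, 95.8 and 115 FPKM on MS. The composition of the sum shifted with the treatment. *IAA2* and *IAA4* together made up 59.1% ± 1.96 of it in *siz1-2* with IAA and 78.3% ± 2.87 in *siz1-2* on MS, and 54.4% ± 8.68 in Col-0 with IAA and 72.7% ± 0.580 in Col-0 on MS (SD, n = 3). *IAA19* made up 15.3% ± 2.23 in *siz1-2* with IAA and 8.03% ± 1.35 in *siz1-2* on MS, and 22.0% ± 9.73 in Col-0 with IAA and 8.71% ± 1.72 in Col-0 on MS. Of the summed FPKM of all 29 Aux/IAA genes, the 8 genes held 24.1% ± 0.550 in *siz1-2* with IAA, 11.2% ± 1.44 in *siz1-2* on MS, 22.0% ± 4.47 in Col-0 with IAA and 12.5% ± 1.18 in Col-0 on MS.

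**Figure D5:**
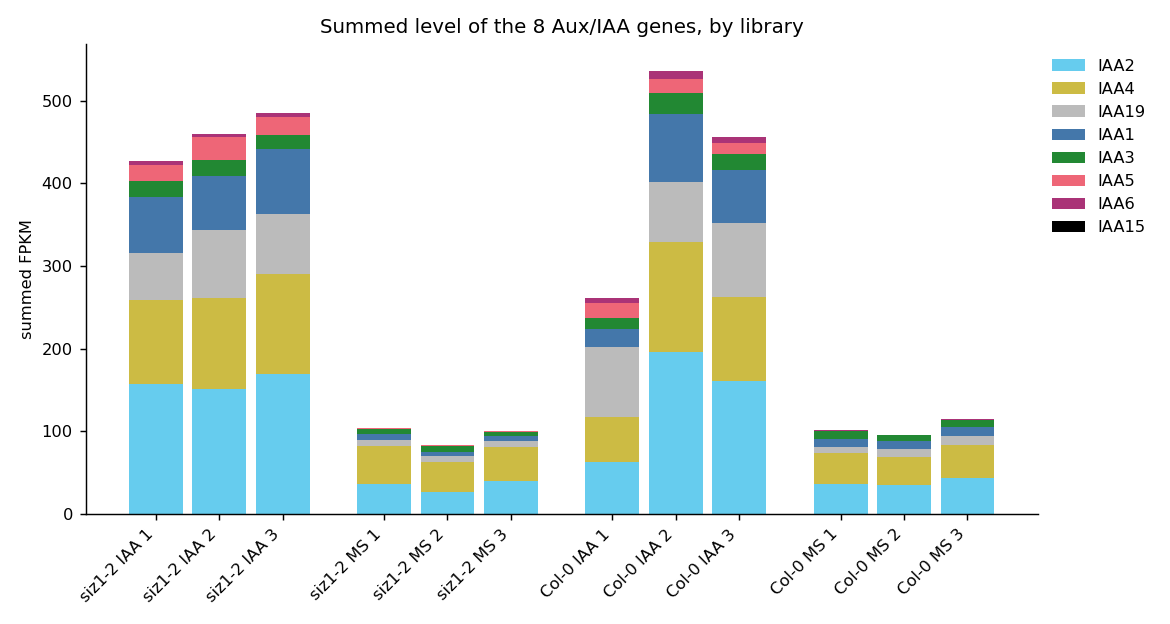
Summed FPKM of the 8 genes in each library, stacked by gene, with *siz1-2* IAA, *siz1-2* MS, Col-0 IAA and Col-0 MS in this order from left. IAA libraries reach 261 to 537 FPKM and MS libraries 83.1 to 115 FPKM, and Col-0 IAA replicate 1 is the lowest of the IAA libraries.

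The genotypes were then compared with IAA, which asks whether loss of *SIZ1* function changes the level that these genes reach. *IAA6* was the only one called. All 3 *siz1-2* libraries (3.51 to 5.12 FPKM) were below all 3 Col-0 libraries (6.27 to 9.59 FPKM), with a log2 difference of -0.76 (95% interval -1.22 to -0.29, adjusted p = 0.0438 from limma). Of all tested genes, 3.91% were called higher and 5.21% lower in *siz1-2* with IAA, and libraries were apart in the lower direction for 14.8% and in the higher direction for 13.9%. The call of *IAA6* lay close to the threshold. The adjusted p was 0.0963 when only the IAA groups were fitted, and 0.117, 0.151 and 0.065 from limma without *siz1-2* IAA replicate 1, 2 or 3. It was 0.123 and 0.0627 from limma without Col-0 IAA replicate 2 or 3, against 0.0242 without replicate 1. The call was also lost without *siz1-2* MS replicate 2 or 3 (adjusted p = 0.0507 and 0.0518 from limma). The same held without Col-0 MS replicate 2 or 3 (adjusted p = 0.0632 and 0.0519 from limma), although MS libraries do not enter this difference itself. *IAA5* was higher in every *siz1-2* library (19.9 to 27.4 FPKM) than in the Col-0 libraries (14.1 to 17.7 FPKM), but its log2 difference of 0.48 was not called (95% interval -0.08 to 1.04, adjusted p = 0.268 from limma). The other 5 genes had log2 differences of -0.24 to 0.53, their libraries overlapped and every 95% interval included 0, with outer bounds of -0.61 and 1.29. For *IAA1*, *IAA2* and *IAA4* the difference turned from positive to between -0.16 and -0.04 without Col-0 IAA replicate 1.

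On MS, where no auxin was added, none of the 7 genes was called between the genotypes in the limma fit of 12 libraries, and 1 of 7 (*IAA6*) had an unadjusted p under 0.05, with limma on the FPKM and with voom on the fragments alike. The same held for 18.6% of all tested genes in limma, so this count is not above the background. Of all tested genes 2.75% were called higher and 2.55% lower in *siz1-2* on MS, and with each library centred on its median the higher genes made up 68.5% of the calls instead of 51.9%. *IAA1* was lower in every *siz1-2* library (4.66 to 6.92 FPKM) than in the Col-0 libraries (9.42 to 11.7 FPKM), and so was *IAA6* (0.159 to 0.414 FPKM in *siz1-2*, 0.576 to 0.856 FPKM in Col-0). Such a separation in the lower direction was seen in 22.2% of all tested genes. The log2 difference was -0.72 for *IAA1* (95% interval -1.48 to 0.04, adjusted p = 0.301 from limma) and -0.62 for *IAA6* (95% interval -1.09 to -0.16, adjusted p = 0.127 from limma). Deviations of MS libraries with the same replicate number correlated between the genotypes, though weakly, and the labels name no shared batch. The fits with the number as a block are therefore given only as alternatives. *IAA1* had an adjusted p of 0.0145 from limma when only the MS groups were fitted with the block, 0.0347 without the block, and 0.303 with the block in all 12 libraries. In the blocked fit of the MS groups 1000 genes were called higher and 1811 lower over the whole table, against 516 and 478 in the fit of 12 libraries. Leaving Col-0 IAA replicate 1 out of the fit of all libraries also brought *IAA1* past the threshold (adjusted p = 0.0105 from limma), although this library does not enter the difference itself. The other 5 genes had log2 differences of -0.34 to 0.12, with outer bounds of -0.84 and 0.68.

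The difference between the responses to IAA, tested as an interaction, was called for none of the 7 genes, and 0.016% of all tested genes (3 genes) were called. *IAA1* came closest, with a response larger by 1.25 on the log2 scale in *siz1-2* than in Col-0 (95% interval 0.17 to 2.32, unadjusted p = 0.0261, adjusted p = 0.433 from limma). It was the only one of the 7 with an unadjusted p under 0.05 in limma, where 11.3% of all tested genes did, and none reached this with voom. Without Col-0 IAA replicate 1 the value was 0.68 (adjusted p = 0.399 from limma). The other genes had interaction values of -0.13 to 0.50, with 95% intervals from -0.79 at the lowest bound to 1.45 at the highest. Differences in response within these intervals could not be resolved with 3 libraries a group.

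The other parts of the auxin signaling pathway were described from lists. Of 21 other Aux/IAA genes 18 were tested, and 11 rose and 2 fell with IAA in *siz1-2*, while 11 rose and 1 fell in Col-0. The median log2 fold change of the 7 genes, with *IAA5* and *IAA6* favoured by the filter, was 2.66 in *siz1-2* and 2.19 in Col-0. That of the other Aux/IAA genes was 0.86 in *siz1-2* and 0.89 in Col-0. The largest in *siz1-2* were *IAA29*, with 3.62 in *siz1-2* (adjusted p = 1.39e-06 from limma) and 2.88 in Col-0 (adjusted p = 9.93e-06 from limma), *IAA11*, with 2.66 in *siz1-2* and 2.29 in Col-0, and *IAA30*, with 2.14 in *siz1-2* and 2.04 in Col-0, where *IAA13* (2.07) stood above *IAA30*. Those that fell were *IAA28* (-0.63 in *siz1-2*) and *IAA33* (-0.85 in *siz1-2*, -1.31 in Col-0). *IAA29* was below 1 FPKM in every MS library, and *IAA30* was above it only in Col-0 MS replicate 3 (1.24 FPKM). Both passed the filter for testing only through their IAA libraries, so their part in the counts of rises and in the medians was favoured by the filter. Of the 6 TIR1/AFB receptor genes, only *AFB1* was called, and it was lower with IAA in *siz1-2* (log2 fold change -0.51) and in Col-0 (-0.83). Among 5 genes for activating ARFs, which Aux/IAA proteins repress, *ARF19* (2.11) and *ARF6* (0.45) rose in *siz1-2* and none was called in Col-0, where *ARF19* had a value of 1.01 (adjusted p = 0.0626 from limma). Among 5 genes of the TOPLESS family, *TPR3* rose in *siz1-2* (0.51) and none was called in Col-0. Whether these counts differ between the genotypes was not tested, and none of these genes was called in the interaction. Under all 3 other scalings between the libraries, *TPR3* and *ARF6* were no longer called in *siz1-2* and *ARF19* was called in Col-0 as well. The counts of other Aux/IAA genes also depended on the scaling. *IAA16* (adjusted p up to 0.0859 from limma) and *IAA7* could lose their call in *siz1-2*, and *IAA17* in Col-0. With quantile normalization *IAA10* was called higher in Col-0 (adjusted p = 0.0363 from limma). *ARF19* was at 7.97, 21.3 and 30.3 FPKM in Col-0 with IAA, against 9.52, 8.41 and 7.33 FPKM in Col-0 on MS, so that only replicate 1 lay within the MS range. Without that library the log2 fold change of *ARF19* in Col-0 was 1.54 (adjusted p = 7.54e-05 from limma), and *TIR1*, *TPL* and *TPR2* were also called higher in *siz1-2*, with unchanged fold changes of 0.34, 0.38 and 0.39.

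3 members lie beside another Aux/IAA gene in the genome, each time in opposite orientation with 1 annotated gene between. *IAA14* lies 10732 bases from *IAA1* on chromosome 4, *IAA7* lies 12510 bases from *IAA2* on chromosome 3 and *IAA17* lies 6388 bases from *IAA3* on chromosome 1. *IAA14* rose by 1.11 on the log2 scale in *siz1-2* and by 1.57 in Col-0, and *IAA7* rose by 0.47 in *siz1-2* and by 0.44 in Col-0, while *IAA17* was at 0.07 in *siz1-2* (adjusted p = 0.764 from limma) and rose by 0.48 in Col-0 (adjusted p = 0.0357 from limma). In both genotypes the log2 fold change of each neighbour was below that of its partner, which was not tested. With other scalings between the libraries, *IAA17* in Col-0 (adjusted p up to 0.0618 from limma) and *IAA7* in *siz1-2* (adjusted p up to 0.0593 from limma) could lose their call.

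Across the 12 libraries the 7 genes followed each other closely, with Pearson's r between 0.871 (*IAA4* and *IAA6*) and 0.991 (*IAA1* and *IAA2*) on log2(FPKM + 0.5). All of these values share the same libraries and the contrast between IAA and MS, and they are given as a description. *IAA5* and *IAA19* were also close to each other (r = 0.984). Outside the Aux/IAA family, the genes most like the mean profile of the 7 were AT1G60010 (r = 0.994), AT1G30190 (r = 0.993), AT4G17350 (r = 0.991), *MAKR4* (AT2G39370, r = 0.990), a membrane-associated protein of lateral root formation, and *CLE16* (AT2G01505, r = 0.987), which encodes a signaling peptide. *MAKR4* averaged 95.4 FPKM in *siz1-2* with IAA and 6.45 FPKM in *siz1-2* on MS, and 83.5 FPKM in Col-0 with IAA and 7.35 FPKM in Col-0 on MS.

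Taken singly, *IAA5* was most like *ACS9* (AT3G49700, r = 0.992), an ACC synthase of ethylene synthesis, which averaged 14.8 FPKM in *siz1-2* with IAA and 0.0206 FPKM in *siz1-2* on MS. *IAA6* was most like the NAC-domain gene *NAM* (AT1G52880, r = 0.991), which averaged 10.9 FPKM in *siz1-2* and 15.6 FPKM in Col-0 with IAA. The gene most like *IAA19* was AT4G11340 (r = 0.993), that most like *IAA1* was AT4G35200 (r = 0.985) and that most like *IAA2* was AT4G11230 (r = 0.985). For *IAA4* it was the kinase gene *SNRK2.9* (AT2G23030, r = 0.985), and for *IAA3* it was AT4G04320 (r = 0.969). Thus each tested member had a different nearest gene, and only the genes nearest to *IAA5* and *IAA19* were almost undetected on MS, at group means of at most 0.0328 FPKM.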

How the data were processed

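RNA from whole roots was sequenced in 12 libraries, 3 in each of 4 groups taken from the genotype and treatment labels. The authors deposited 1 table of FPKM values for 23853 genes, made on the platform of their sequencing provider. No source used here names the aligner or the genome build. All gene identifiers matched the RefSeq annotation of TAIR10.1, and each FPKM value times the exonic length there gave a whole number of fragments (within 0.05), so coordinates and sequences were taken from that RefSeq build. FPKM are relative to each library's total, so a change in total RNA is not seen.

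The 18743 genes that reached 1 FPKM in 3 or more libraries were tested with limma 3.58.1 in R 4.3.3, two-sided, with a variance trend on log2(FPKM + 0.5), in 1 fit of 4 group means over all 12 libraries. Genes were called at a Benjamini-Hochberg adjusted p under 0.05 within each comparison. The comparisons were IAA against MS in each genotype, *siz1-2* against Col-0 at each treatment, and the interaction. The procedure was tested on simulated data for IAA against MS in Col-0, with changes added only to more highly expressed genes. Changes in low genes, comparisons between the genotypes and the interaction were not covered by it.

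Replicate numbers come from the sample titles. Deviations from the group means of libraries with the same number correlated weakly on MS between *siz1-2* and Col-0 (r = 0.119, 0.203 and 0.337), which was taken as pairing. The labels give only the number and name no shared batch, so this pairing was read from the same data. In the other comparisons at least 1 pair was at or below 0.1, although replicate 1 of *siz1-2* IAA and *siz1-2* MS reached 0.282.

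The members and the gene lists were chosen with earlier results of these data known. All 8 members were named, as were the called genes of each pathway list with the largest changes (up to 3), Aux/IAA genes beside a member, and, outside the family, the 5 genes most correlated with the mean profile and the nearest gene to each member. *IAA10*, *IAA13*, *IAA16*, *IAA28*, *IAA33*, *TIR1*, *TPL*, *TPR2* and the called root markers were named after their values were seen. Alternatives were other pseudocounts, filters, scalings, variance settings, subsets of groups, replicate blocks, stricter calls and leaving out each library. A voom fit on the recovered fragments was added after seeing the data. Plots were drawn with matplotlib 3.10.9. Protein sequences were not used here.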

Additional observations from a re-analysis of the deposited data

How the results depend on the processing

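The rise of the 7 tested genes with IAA held in both genotypes, in all 378 values from the alternatives. For *siz1-2* against Col-0 with IAA, the count of called genes was 0 instead of 1 with a pseudocount of 0.1, without a filter, with a filter of 5 FPKM, with only the groups compared, with the replicate block (adjusted p of *IAA6* 0.0717), with the block in only these groups (0.204), with a log2 limit of 1 and at an adjusted p under 0.01, and 0 to 1 without single libraries. On MS it was 1 instead of 0 with a pseudocount of 0.1 (*IAA6*, -1.12), with only the groups compared and with the block in these groups (*IAA1*), and 0 to 1 without single libraries. The replicate block changed no other call of the 7 genes.

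Log2 differences that were not called and turned sign ranged, without single libraries, with IAA from -0.035 to 0.91 for *IAA1*, -0.16 to 0.65 for *IAA2*, -0.34 to 0.18 for *IAA3* and -0.064 to 0.59 for *IAA4*, and on MS from -0.29 to 0.0012 for *IAA2* and -0.10 to 0.44 for *IAA5* (-0.068 with quantile normalization). Interaction values ranged from -0.0048 to 0.52 for *IAA3*, -0.19 to 0.47 for *IAA4*, -0.26 to 0.025 for *IAA6* and -0.14 to 0.15 for *IAA19*, and *IAA6* had 0.31 with a pseudocount of 0.1 and 0.51 with voom. The causes were not tested.

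Over all genes, fitting only the groups compared moved the calls of IAA against MS to 3508 higher and 2242 lower in *siz1-2* (1839 and 1510 in the fit of 12 libraries) and to 1016 and 851 in Col-0 (1703 and 1538). It moved those of *siz1-2* against Col-0 to 396 and 516 with IAA (732 and 977) and to 647 and 993 on MS (516 and 478). Depth limits *IAA5* and *IAA6* on MS and *IAA15* throughout.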
